A study of Mus musculus with 6 samples.

Results

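The genes described here are Pfkfb1, Pfkfb2, Pfkfb3 and Pfkfb4, which encode the bifunctional enzymes that make and break down fructose 2,6-bisphosphate, and Tigar, which encodes a related phosphatase. They were taken by gene symbol, and all 5 were found among the 24532 genes of the deposited table. The family was selected on read counts of the same knockout and control libraries, with the lower level of Pfkfb3 in knockout muscle already known. The differences between genotypes in these 5 genes are therefore given as descriptions, and nothing is supported by a p of this contrast.

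RNA was sequenced from whole gastrocnemius, the large calf muscle, of 12-week-old C57BL/6 mice. The 3 knockout mice were Ckmm-Cre; USP21 flox/flox, so that a Cre recombinase under the muscle creatine kinase promoter acted on floxed alleles of Usp21, the gene of a deubiquitinating enzyme. The 3 control mice were USP21 flox/flox without the Cre, so both groups carried the floxed alleles, and no group with Cre alone was among the libraries. The labels name no litter, culture or batch that animals had in common (the controls' genotype field reads Litter), so the spread within a group is that between these libraries.

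Fructose 2,6-bisphosphate is a strong allosteric activator of phosphofructokinase, which commits sugar to glycolysis, and an inhibitor of fructose bisphosphatase, which works in the opposite direction. Each PFKFB protein joins a kinase that makes this molecule to a phosphatase that removes it, and the isoforms differ in the balance of these activities and in the kinases that act on them. TIGAR has the phosphatase activity alone, and lowering fructose 2,6-bisphosphate favours the pentose phosphate pathway.

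Pfkfb3 is the member whose libraries separated by genotype. The table assigns it 8 RefSeq transcripts, of which 7 match GENCODE transcripts that start close together and 1 starts farther upstream. Windows of 250 bases before each RefSeq start (RefSeq, GRCm38.p6, the assembly that mm10 names) were found for all 5 genes, 11 windows in all. They are shown for the nearer Pfkfb3 start, for a Pfkfb2 start that shares a motif with it, and for Tigar, which lacks that motif. Each is written on the gene's own strand, and capitals mark CACGTG, the E-box recognised by basic helix-loop-helix factors.
Pfkfb3, chr2:11502091-11502340, minus strand: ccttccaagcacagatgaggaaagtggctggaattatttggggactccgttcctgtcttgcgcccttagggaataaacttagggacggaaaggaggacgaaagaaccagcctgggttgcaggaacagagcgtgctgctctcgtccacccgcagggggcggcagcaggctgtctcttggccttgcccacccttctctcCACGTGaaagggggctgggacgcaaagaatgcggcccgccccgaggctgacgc
Pfkfb2, chr1:130715822-130716071, minus strand: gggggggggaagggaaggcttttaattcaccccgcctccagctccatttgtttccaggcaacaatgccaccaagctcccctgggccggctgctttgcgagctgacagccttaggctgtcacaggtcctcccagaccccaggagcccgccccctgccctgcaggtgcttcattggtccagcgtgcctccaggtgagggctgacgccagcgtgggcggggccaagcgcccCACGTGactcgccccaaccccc
Tigar, chr6:127109553-127109802, minus strand: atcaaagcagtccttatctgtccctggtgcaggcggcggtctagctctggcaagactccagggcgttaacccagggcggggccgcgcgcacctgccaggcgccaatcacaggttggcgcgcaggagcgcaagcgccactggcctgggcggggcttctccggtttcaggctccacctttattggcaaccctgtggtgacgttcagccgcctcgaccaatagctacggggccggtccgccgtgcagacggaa

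CACGTG, which reads the same on both strands, begins 53 bases before the nearer Pfkfb3 start and 22 bases before the Pfkfb2 start shown. It was in 6.02% of 32841 windows of the same length and in 2 of the 11 windows of these genes. The shorter ACGTG, a form of the core of the hypoxia response element, was searched on both strands and lies within every CACGTG. The other form of that core, GCGTG, was not searched, so a window without ACGTG may still hold the core. ACGTG was in 16.6% of all windows and in 4 of the 11. The upstream Pfkfb3 window held ACGTG 60 bases before its start, and another Pfkfb2 window held it 172 bases before its start. The windows of Pfkfb1, Pfkfb4 and Tigar had no ACGTG on either strand, and none of the 11 had GTAAACA, a FoxO motif found in 3.17% of windows. These are matches of letters and no measure of binding.

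The libraries held between 48658436 and 67332846 counts. Usp21 stood at 9.08, 7.19 and 7.47 CPM (counts scaled to library size with TMM factors) in knockout muscle, against 19.3, 19.3 and 19.2 CPM in control muscle, with a log2 fold change of -1.28. Every knockout library was below every control library, the direction the labels give. Fast-fibre genes were abundant. Their 10 markers summed to between 157858 and 191851 CPM in knockout muscle and between 136491 and 170431 CPM in control muscle. Slow-fibre markers were uneven. Their 10 genes summed to 1171, 817 and 1909 CPM in knockout muscle, against 1591, 1570 and 194 CPM in control muscle, so that control 3 had the smallest sum by a wide margin. The 5 hepatocyte markers summed to 14.9 CPM in knockout 2 and to at most 0.635 CPM in the other libraries, and the 5 testis germ cell markers had no count in any library. In whole tissue, fewer cells of a type and less RNA per cell cannot be told apart.

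All 5 genes passed the filter on low counts. Pfkfb3 (Entrez 170768; mm10, chr2:11471430-11554071, minus strand) encodes the isoform with the highest ratio of kinase to phosphatase activity. It had 92.4, 92.6 and 55.3 CPM in knockout muscle, against 134, 245 and 248 CPM in control muscle. All knockout libraries lay below all control libraries, with knockout 3 the lowest of the 6 and control 1 the lowest of the controls.

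The group means of Pfkfb3 were 80.1 ± 21.5 CPM in knockout muscle and 209 ± 64.5 CPM in control muscle (SD, n = 3 each), so knockout muscle was at 38.3% of control. The log2 fold change, knockout minus control, was -1.38 (SE 0.28), and 0.248% of the 14109 genes tested had a lower one. The gap between the closest libraries, 92.6 CPM in knockout 2 and 134 CPM in control 1, was smaller than the distance between control 1 and the other controls.

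With 1 library left out at a time, the log2 fold change of Pfkfb3 ran from -1.62 without control 1 to -1.18 without knockout 3. This range is a description, since the gene was chosen with this contrast known. The ratio of counts to FPKM (the authors' fragment value, scaled to gene length and library size) corresponded to a transcript model of between 5.10 and 5.16 kb in the 6 libraries, so the mean length of the transcripts credited to the gene was nearly the same in both genotypes.

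**Figure D1:**
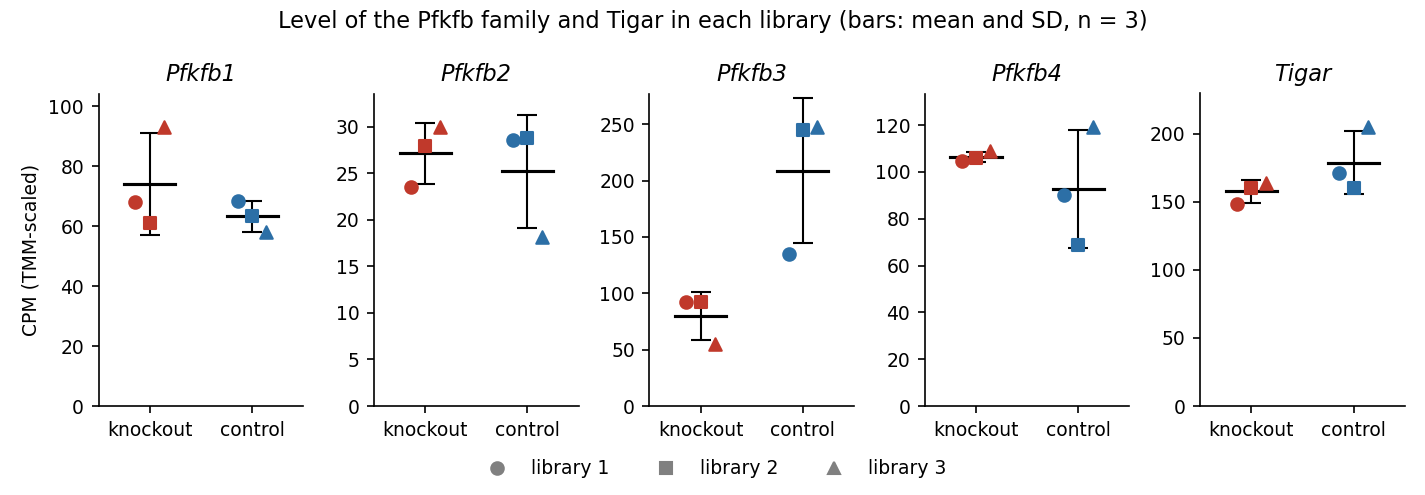
TMM-scaled CPM of each gene in the 3 knockout libraries (red, left) and 3 control libraries (blue, right), with the mean and SD as black lines and the library number as the symbol; each panel has its own axis from 0. The Pfkfb3 groups do not overlap (55.3 to 92.6 CPM in knockouts, 134 to 248 CPM in controls), and those of the other genes do.

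Pfkfb1 (Entrez 18639; chrX:150587445-150643878, plus strand) gives rise, in rat, to the liver and muscle forms of the enzyme from separate promoters. It had 68.2, 60.9 and 93.1 CPM in knockout muscle, against 68.4, 63.4 and 58.1 CPM in control muscle. Knockout 3 was the highest library and control 3 the lowest, and the other libraries of both genotypes were intermixed. The means were 74.1 ± 16.9 CPM in knockouts and 63.3 ± 5.19 CPM in controls (SD, n = 3 each), with a log2 fold change of 0.23 (SE 0.16) that came to 0.028 without knockout 3. The table counts Pfkfb1 on 1 transcript model, so reads from other first exons of the gene could not be separated. Apex2, on the opposite strand, overlaps exons of Pfkfb1 in GENCODE and averaged 5.06 CPM in knockouts and 4.77 CPM in controls. The GENCODE match of the counted Pfkfb1 model starts at chrX:150589921, and Apex2 ends at 150588206 in RefSeq. By these coordinates Apex2 does not reach the counted model. Whether the counting used the strand is not given in the sources used here.

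Pfkfb2 (Entrez 18640; chr1:130689043-130729253, minus strand) encodes the isoform best known from heart, where insulin signalling through AKT phosphorylates it. It had 23.6, 27.9 and 30.0 CPM in knockout muscle, against 28.6, 28.8 and 18.2 CPM in control muscle. The groups overlapped, and control 3 was the lowest of the 6 libraries. The means were 27.2 ± 3.28 CPM in knockouts and 25.2 ± 6.10 CPM in controls (SD, n = 3 each). The log2 fold change of 0.11 (SE 0.19) was smaller than its standard error and came to -0.082 without control 3. Exons of Yod1, on the opposite strand, overlap the gene in GENCODE, and Yod1 averaged 2.65 CPM in knockouts and 2.46 CPM in controls. Gm29427, a protein-coding gene on the same strand, also overlaps exons of Pfkfb2. It was not among the genes counted, so its level is not known here.

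Pfkfb4 (Entrez 270198; chr9:108988272-109032236, plus strand) encodes the isoform first described in testis, and is induced by hypoxia in many cell types. It had 105, 106 and 109 CPM in knockout muscle, against 90.3, 68.9 and 119 CPM in control muscle. The knockout libraries were close together, with a coefficient of variation of 2.08%, and lay inside the wider range of the controls, whose coefficient of variation was 27.2%. The means were 106 ± 2.22 CPM in knockouts and 92.8 ± 25.2 CPM in controls (SD, n = 3 each), with a log2 fold change of 0.20 (SE 0.18). It ran from 0.014 without control 2 to 0.42 without control 3.

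Tigar (Entrez 319801; chr6:127085116-127109552, minus strand), named as a p53-induced gene, had 148, 161 and 164 CPM in knockout muscle, against 171, 160 and 205 CPM in control muscle. The groups overlapped, since control 2 lay below knockouts 2 and 3, and control 3 was the highest library. The means were 158 ± 8.42 CPM in knockouts and 179 ± 23.4 CPM in controls (SD, n = 3 each), with a log2 fold change of -0.18 (SE 0.11). Without control 3 it came to -0.072. Platr31, an antisense gene, overlaps exons of Tigar in GENCODE and was not among the genes counted.

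For 1 of the 5 genes, Pfkfb3, the libraries of the genotypes were fully apart in log2 CPM, as for 17.3% of all genes tested (8.87% lower in knockout). In edgeR's fit to all genes, 0 of the 5 had an adjusted p under 0.05, as did 0.0567% of all genes. Pfkfb3 alone was under an unadjusted p of 0.05, as were 11.6% of all genes. It alone was called by DESeq2's Wald test, which called 2.1% of the genes to which it gave an adjusted p. No member was called by limma-voom, which called 0.0354% of genes. Since the genes were chosen with this contrast known, nothing is read from these counts.

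**Figure D2:**
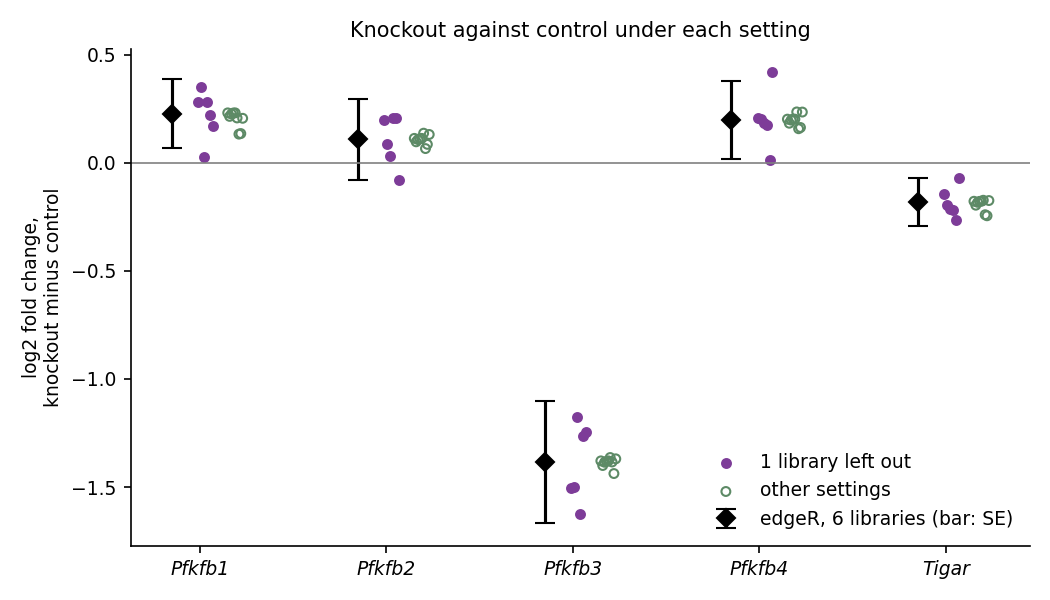
Log2 fold change, knockout minus control, of each gene by edgeR on all 6 libraries (black diamond, bar for the SE), with 1 library left out at a time (filled circles) and under 9 other settings (open circles). Pfkfb3 lies between -1.62 and -1.18 throughout, while Pfkfb2 crosses 0 without control 3.

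Levels were compared between genes on the FPKM scale, which accounts for length. In knockout muscle the order by mean level was Tigar (41.5 ± 2.33 FPKM), Pfkfb1 (41.2 ± 10.4 FPKM), Pfkfb4 (30.5 ± 1.40 FPKM), Pfkfb3 (15.2 ± 3.85 FPKM) and Pfkfb2 (4.53 ± 0.518 FPKM; SD, n = 3 for each). Tigar and Pfkfb1 overlapped. Pfkfb1 and Pfkfb4 were narrowly apart, since the lowest Pfkfb1 value of 32.3 FPKM was just above the highest Pfkfb4 value of 31.9 FPKM, and the ranges of the genes after them did not touch.

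In control muscle the order by mean level was Tigar (49.3 ± 4.40 FPKM), Pfkfb3 (41.8 ± 12.9 FPKM), Pfkfb1 (36.9 ± 4.03 FPKM), Pfkfb4 (27.7 ± 6.41 FPKM) and Pfkfb2 (4.37 ± 1.20 FPKM; SD, n = 3 for each). Each gene from Tigar to Pfkfb4 overlapped the next in line, and only Pfkfb2 stood apart from its neighbour. In every knockout library Pfkfb3 was thus above Pfkfb2 alone. Its place differed among the controls: it was the highest in control 2, next after Tigar in control 3, and above Pfkfb2 alone in control 1.

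The make-up of the bifunctional family can be read within a library, where scaling between libraries plays no part. Pfkfb3 made up 19.7%, 20.3% and 10.7% of the summed FPKM of Pfkfb1 to Pfkfb4 in knockout muscle, against 27.2%, 44.0% and 40.5% in control muscle. The shares did not overlap between genotypes, and control 1 came nearest to the knockouts. Pfkfb1 was 42.3%, 39.1% and 52.5% of the sum in knockout muscle, against 40.3%, 33.0% and 27.6% in control muscle. It was the leading isoform in all 3 knockout libraries and also in control 1.

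The ratio of Pfkfb3 to Pfkfb4 in FPKM was 0.586, 0.578 and 0.338 in knockout muscle, against 0.990, 2.37 and 1.38 in control muscle. Pfkfb4 was therefore above Pfkfb3 in every knockout library, and in control 1 both were at nearly the same level.

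The sum over the bifunctional family was less separated. It was 91.1, 82.6 and 100.3 FPKM in knockout muscle, against 99.3, 116 and 117 FPKM in control muscle, and knockout 3 lay above control 1. Without Pfkfb3 the other isoforms summed to 76.2 ± 12.2 FPKM in knockouts and 68.9 ± 3.69 FPKM in controls (SD, n = 3 each), a difference smaller than the spread among knockouts.

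**Figure D3:**
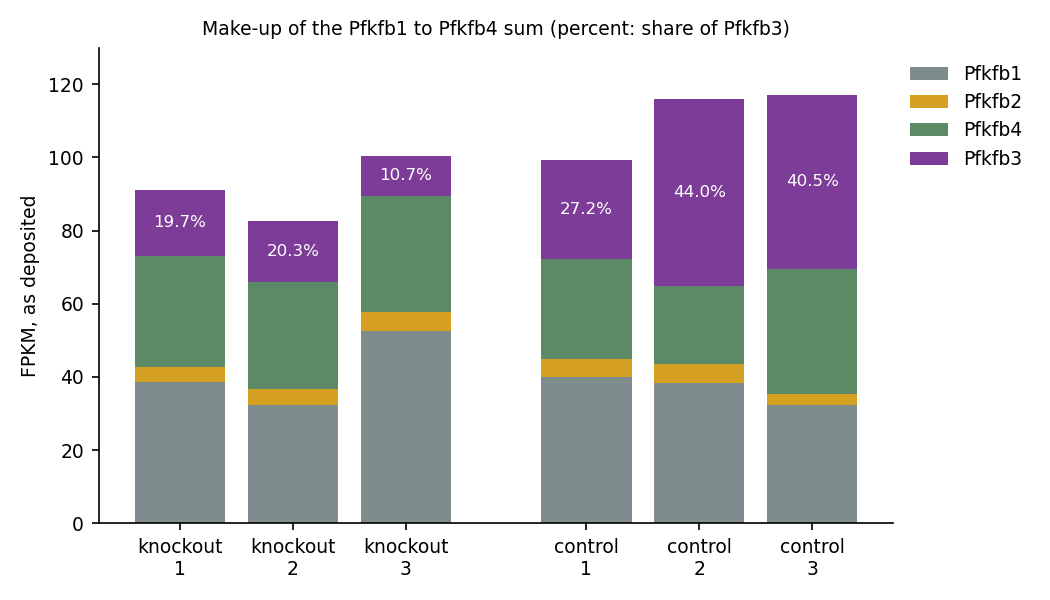
Summed FPKM of Pfkfb1, Pfkfb2, Pfkfb4 and Pfkfb3 in each library, knockouts at the left and controls at the right, stacked by gene, with the share of Pfkfb3 printed in its segment. The Pfkfb3 segment is between 10.7% and 20.3% of the sum in knockouts and between 27.2% and 44.0% in controls, and the other segments together differ less.

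Several markers of other cells and fibres varied among these libraries, and their part in the values above was not tested. The library with the fewest slow-fibre counts, control 3, had the lowest Pfkfb1 and Pfkfb2 and the highest Pfkfb3, Pfkfb4 and Tigar of the 6. The library with the most, knockout 3, had the highest Pfkfb1 and Pfkfb2 and the lowest Pfkfb3. Its Pfkfb4 and Tigar did not mirror control 3, at ranks 5 and 4 of 6 from the lowest. Controls 1 and 2 had slow-fibre sums of 1591 and 1570 CPM, with Pfkfb3 at 134 and 245 CPM. Knockouts 1 and 2 had smaller slow-fibre sums, of 1171 and 817 CPM, and also lower Pfkfb3, at 92.4 and 92.6 CPM. The log2 fold change of Pfkfb3 was -1.24 without control 3 and -1.18 without knockout 3, and slow-fibre sums still differed among the libraries that remained.

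Of 7 endothelial markers, cells in which Pfkfb3 has been much studied, 6 were lower on average in knockout muscle and 1 higher. Their sum was between 261 and 288 CPM in knockout muscle and between 261 and 341 CPM in control muscle. Adipocyte markers had 5 of 7 positive, with sums between 2291 and 4195 CPM in knockouts and between 1994 and 2653 CPM in controls. Car3 made up most of these sums, at 2503, 3940 and 2211 CPM in knockouts and 2131, 1950 and 2465 CPM in controls. The sums are thus no measure of fat content. Adipoq had 9.95, 28.7 and 7.58 CPM in knockouts and 9.49, 5.20 and 21.3 CPM in controls, highest in knockout 2 and control 3. Fibroblast markers had 7 of 7 positive, with sums between 2237 and 2675 CPM in knockouts and between 1490 and 2288 CPM in controls. Macrophage and leukocyte markers had 6 of 7 positive, with sums between 90.2 and 148 CPM in knockouts and between 89.3 and 153 CPM in controls. No marker in these lists was at 0 in all libraries.

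Related genes were read from 8 lists. Some held the enzymes that fructose 2,6-bisphosphate acts on, glycolysis and lactate, glycogen and the pentose phosphate pathway. The others held kinases reported to act on PFKFB proteins, hypoxia genes, p53 genes and the circadian clock. Together the lists had 107 genes, of which 105 were tested. By edgeR, 0 passed an adjusted p under 0.05 in either direction, beside 0.0354% of all genes higher and 0.0213% lower. Before adjustment, 12 of them were higher and 8 lower with p under 0.05, beside 925 and 715 of all 14109 genes. DESeq2's Wald test called 3 higher, Cdkn1a of the p53 list and Nfil3 and Per2 of the clock list. It called 2 lower, Bhlhe40 of the hypoxia list and Nr1d1 of the clock list. Beside these stand 210 higher and 80 lower among the 13829 genes to which it gave an adjusted p, 2.1% in both directions together. The limma-voom fit called none, and Per2 was named after its values were seen.

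At the step itself, 4 of 5 genes of phosphofructokinase and fructose bisphosphatase were tested and 3 were positive, with a median log2 fold change of 0.19 against -0.0037 over all genes. Pfkm, the muscle phosphofructokinase, added with its values in view, stood at 4406 ± 303 CPM in knockouts and 4262 ± 152 CPM in controls (SD, n = 3 each; 0.048, SE 0.099). The less abundant platelet-type Pfkp was at 10.6 and 7.20 CPM in knockouts and controls (0.55, SE 0.20), and the liver-type Pfkl at 11.7 and 13.9 CPM (-0.25, SE 0.13). Libraries of both genotypes overlapped for all of these.

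Genes of glycolysis and lactate had 15 of 20 positive and a median of 0.16. Hk2, the hexokinase that traps glucose in muscle, had 742, 781 and 585 CPM in knockouts, against 562, 544 and 407 CPM in controls (log2 fold change 0.48, SE 0.16, edgeR adjusted p = 0.363). The lactate exporter Slc16a3 was at 439 and 386 CPM in knockouts and controls (0.18, adjusted p = 0.435). Every knockout library was above every control library for both, which was so for 8.38% of all genes.

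Glycogen genes had 10 of 15 positive and a median of 0.065. Gyg, the primer of glycogen synthesis, stood at 394 and 461 CPM in knockouts and controls (-0.23), and the phosphorylase kinase subunit Phka1 at 1243 and 1036 CPM (0.26). The pentose phosphate pathway, to which TIGAR diverts sugar, had 4 of 8 positive and a median of -0.0023, with Pgd at 0.10 and Pgls at -0.086.

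Kinases reported to phosphorylate PFKFB proteins, among them subunits of AMPK, which phosphorylates PFKFB2 and PFKFB3, had 8 of 15 positive and a median of 0.0099. The insulin- and glucocorticoid-responsive kinase Sgk1 was at 336, 406 and 342 CPM in knockouts, against 174, 241 and 318 CPM in controls (0.56, SE 0.21, edgeR adjusted p = 0.383). Prkca, a protein kinase C, was at 0.29 (SE 0.11, adjusted p = 0.405). The main muscle AMPK subunit Prkaa2, named after its values were seen, was at 311 and 307 CPM in knockouts and controls.

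Hypoxia-inducible factors and their targets, a group to which Pfkfb3 and Pfkfb4 also belong, had 11 of 18 positive and a median of 0.054, or -0.0043 without control 3. Bhlhe40, a repressor that binds E-boxes, had 90.3, 79.1 and 99.3 CPM in knockouts, against 188, 283 and 192 CPM in controls (log2 fold change -1.30, SE 0.18, edgeR adjusted p = 0.121). Every knockout library was below every control library, as for 8.87% of all genes tested, with control 2 the highest. Among the other named pathway genes, Gyg, Vhl, Sesn2 and Nr1d1 were apart in the same direction. Hk2, Slc16a3, Phka1, Sgk1, Cdkn1a, Per2 and Nfil3 were higher in every knockout library, as were 8.38% of all genes. Without knockout 3 Bhlhe40 passed (edgeR adjusted p = 0.0445). Over all alternatives its adjusted p ran from 5.23e-10 by DESeq2 to 0.438 without knockout 1. Vhl, which marks these factors for destruction, was at 5.49 and 7.49 CPM in knockouts and controls (-0.45, SE 0.13, adjusted p = 0.343).

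The p53 list, read beside Tigar, had 5 of 10 tested members positive and a median of -0.0024, with Trp53's target Cdkn1a at 29.8 and 20.1 CPM in knockouts and controls (0.57, SE 0.12, edgeR adjusted p = 0.241) and Sesn2 at 2.26 and 3.45 CPM (-0.62, adjusted p = 0.369). The circadian clock list had 6 of 15 positive and a median of -0.13. Nr1d1, a repressor in the clock, had 124, 109 and 123 CPM in knockouts, against 248, 318 and 161 CPM in controls (-1.03, SE 0.22, adjusted p = 0.241). Nfil3 had 83.7, 85.7 and 51.4 CPM in knockouts, against 29.6, 34.2 and 50.3 CPM in controls (0.95, SE 0.25, adjusted p = 0.312).

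**Figure D4:**
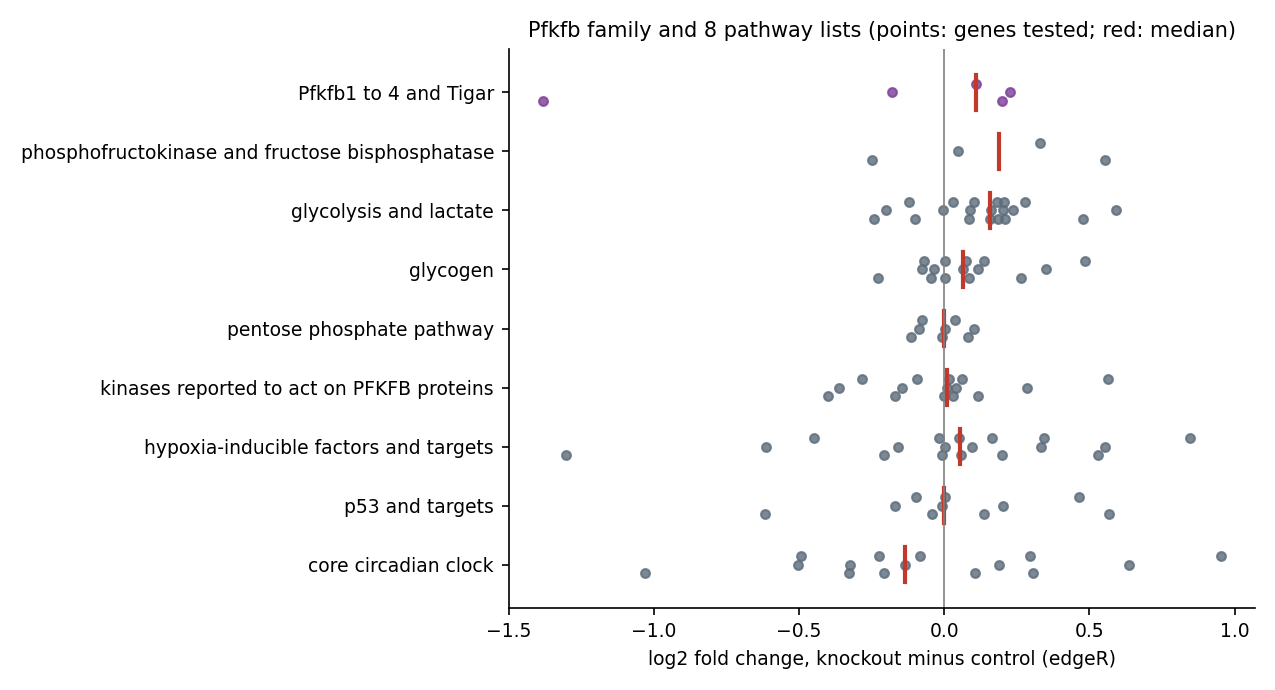
Log2 fold change, knockout minus control, of the 5 genes (top row) and of the tested genes of 8 pathway lists, 1 point a gene, with the median of each row in red. Pfkfb3 at -1.38 and Bhlhe40 at -1.30 lie farthest to the left, and the medians of the lists run from -0.13 to 0.19.

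The genes most like each member in pattern were ranked by Pearson's r of log2 CPM over the 6 libraries, among 12126 other genes with a mean of at least 1 CPM. With 6 points and so many genes, high values are common, and 88 genes had an r above 0.9 with Pfkfb3. The closest to Pfkfb3 were Arhgap35 (r = 0.986 over 6 libraries), Zfp212 (0.985) and Adck5 (0.977). Their differences were far smaller than that of Pfkfb3, with log2 fold changes of -0.31, -0.16 and -0.35. Closest to Tigar were 1700123M08Rik (r = 0.998 over 6 libraries), Fut10 (0.995) and Lrrc45 (0.994), all highest in control 3.

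Closest to Pfkfb1 were Bivm (r = 0.976 over 6 libraries), Eci2 (0.971), which acts in the oxidation of unsaturated fatty acids, and Rgag4 (0.970), all highest in knockout 3. Closest to Pfkfb2 were Slc24a2 (0.992), Zyg11b (0.990) and Larp4b (0.985), all lowest in control 3. Closest to Pfkfb4 were E130317F20Rik (0.982), Pcx (0.981), the pyruvate carboxylase, and Atp6v1g2 (0.979), all lowest in control 2. No other member was counted in these rankings.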

How the data were processed

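Poly(A)-selected libraries from 3 knockout and 3 control gastrocnemius samples were analysed. Read counts per gene, FPKM and TPM values were deposited by the authors, as named per the file headers; counts are whole numbers and unnormalized. The submitters' processing notes name StringTie 1.3.4d, Bowtie2 2.3.4.1, FastQC 0.11.7, bcl2fastq 2.20.0 and the mm10 build, with no roles. Whether Bowtie2 made the alignments behind the counts, and whether counting used the strand, is not stated there.

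Counts were tested with edgeR 4.0.16 (R 4.3.3): filterByExpr with a minimum count of 10, TMM scaling, quasi-likelihood F test, Benjamini-Hochberg adjustment over 14109 genes and a threshold of 0.05. Standard errors came from the F statistic, with a prior count of 2 for log2 CPM. The procedure was tested on simulated data. A count of 0 allows up to 3 counts, between 0.0454 and 0.0598 CPM, for counting error only. FPKM served between genes; TPM, DESeq2 1.42.0 and limma 3.58.1 served as alternatives. Within groups, every pair of libraries differed by more than sampling noise (chi-square over its degrees of freedom at least 35.1), so none was merged as a repeat deposit; this does not show that they are independent animals. The 5 genes and all lists were chosen with earlier results of these data known. Named were the 5 genes, Usp21, of each pathway list the genes past the threshold or else the 2 with the smallest p, and the 3 genes most like each member in pattern. Protein sequences were not used here.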

Additional observations from a re-analysis of the deposited data

How the results depend on the processing

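In the alternatives that kept all 6 libraries, the log2 fold change of each of the 5 genes moved by less than the spread between replicates. With 3 libraries a group, leaving 1 out can hardly move it by more than that spread, so those fits were not judged by it. When single libraries were left out the log2 fold change ran from -1.62 to -1.18 for Pfkfb3 and from 0.028 to 0.35 for Pfkfb1. It ran from -0.082 to 0.21 for Pfkfb2, from 0.014 to 0.42 for Pfkfb4 and from -0.26 to -0.072 for Tigar. The share of Pfkfb3 in the family sum was the same from TPM, 16.9% in knockouts and 37.2% in controls.

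Counts of calls depended on the tool. Over all genes edgeR called 5 higher and 3 lower, DESeq2's Wald test 210 and 80, limma-voom 4 and 1, and limma with a trend 1 and 0 on log2(FPKM + 1) and likewise 1 and 0 on log2(FPKM + 0.1). Without single libraries they ran from 1 to 120 higher and from 0 to 21 lower, both highest without knockout 3. Of the 105 pathway genes, DESeq2 called 3 higher and 2 lower and edgeR 0; without single libraries edgeR called 0 higher and from 0 to 1 lower, the 1 being Bhlhe40 without knockout 3. The cause of these shifts was not tested.

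With the replicate number as a block, 0 genes passed as higher and 0 as lower, and Pfkfb3 was at -1.37. The labels do not say that a number marks a shared litter or day, so the numbers were not taken as pairs. Deviations of same-numbered libraries from their group means correlated at -0.0082, -0.19 and -0.098. Since deviations sum to 0 within each group of 3, these values cannot show whether animals were paired. By Spearman's rho, 1 of the 3 genes named as like Pfkfb3, 2 of those like Tigar and 0 of those like each of the other genes were at the highest value. With 3 libraries a group, the differences in Pfkfb1, Pfkfb2, Pfkfb4 and Tigar were each smaller than 2 of their standard errors. List medians near 0 changed sign with the library left out: they ran from -0.0043 to 0.15 for hypoxia genes, from -0.062 to 0.082 for the pentose phosphate pathway, from -0.026 to 0.023 for kinases and from -0.027 to 0.031 for p53 genes.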
